A study of Mus musculus with 4 samples.

Results

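The genes described here act when developing T cells assemble their antigen receptors. They are 10 genes of receptor rearrangement, the pre-T cell receptor (pre-TCR) and thymocyte identity: Rag1, Rag2, Dntt, Ptcra, Cd24a, Cd1d1, Themis, Tox, Rorb and Arpp21. They were taken as the probes that carry these gene names on a mouse expression array, which gave 18 of 55670 probes and 29 of 59305 spots, out of 34817 gene names. Each gene was represented by its probe with the highest mean over the arrays, and its other probes are given beside it.

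Tregs, or regulatory T cells, are CD4 cells that hold immune responses in check, and they were profiled from thymus and spleen of deltaDC and wild-type (WT) mice, all male and of the C57BL/6 strain. The 4 groups were deltaDC thymus, WT thymus, deltaDC spleen and WT spleen, with 1 array each. The labels used here do not spell out deltaDC and give no age; in the field the name is used for mice that lack dendritic cells. Cells of 3 mice were pooled for each genotype. Splenic cells were first enriched as CD4 T cells by negative selection, thymic cells by removing cells that bound an anti-CD8 antibody, and Tregs were then sorted as live CD4 and CD25 positive cells, without a Foxp3 reporter. All 8 genes of a Treg list, Foxp3 and Il2ra (CD25) among them, were well above background on all 4 arrays. Of all 34817 gene names, 17327 were so too, so detection alone says little about how pure the sorted cells were. Since each group was 1 pool on 1 array, no difference between 2 arrays has a replicate error, and the error given is the spot error, the spread expected from repeated spots of a probe at that brightness. In such bulk samples a smaller share of cells that express a gene and less RNA of it per cell cannot be told apart. Organ and enrichment step went together, so thymus minus spleen values cannot separate these either.

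T cell receptor genes are built in the thymus by cutting and rejoining gene segments. Rag1 and Rag2 together form the enzyme that makes the cuts, and Dntt, terminal deoxynucleotidyl transferase, adds bases without a template at the joints. Ptcra encodes the pre-TCR alpha chain, which pairs with a newly made beta chain and lets the cell go on to rearrange its alpha chain. These genes are known to be switched off as thymocytes mature, and mature T cells of the spleen are not known to rearrange their receptors.

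On both thymus arrays 9 of the 10 genes were well above background, and on both spleen arrays 5 were, as the plot of signals by array shows. Of all 34817 gene names, 18422 were so on both thymus arrays and 17903 on both spleen arrays. Rag1, Rag2, Ptcra and Arpp21 were bright in thymus and dim in spleen, Dntt and Cd24a were measured everywhere and far brighter in thymus, Cd1d1, Themis and Tox were of similar brightness in both organs, and Rorb was dim on every array. Scaled to the 75th percentile of each array, 6 genes were at least 2-fold brighter in thymus and 0 dimmer, in deltaDC as in WT Tregs. Of all genes with a value, 7.49% in deltaDC and 7.56% in WT were that much brighter in thymus. Between genotypes 0 of 9 genes with a value differed 2-fold in thymus, where 4.03% of all genes with a value did, and 0 of 5 in spleen, where 10.7% did. With so few genes a count of 0 is near these shares.

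**Figure D1:**
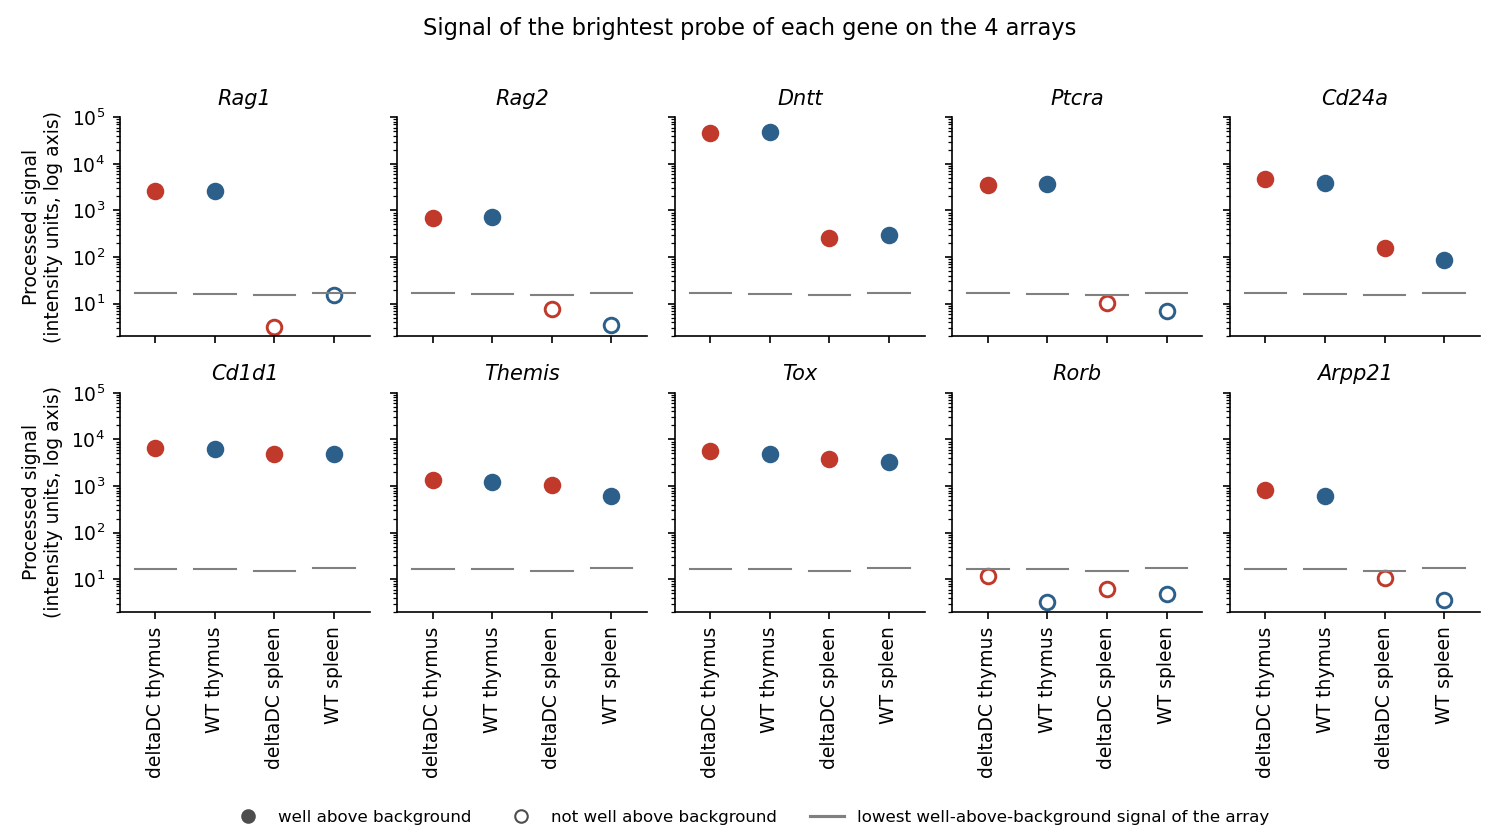
Processed signal (intensity units, log axis) of the brightest probe of each of the 10 genes on the 4 arrays, 1 point for each array. Filled points are well above background, open points are not, and grey bars mark the lowest signal that was called well above background on each array (15.2 to 17.1). Rag1, Rag2, Ptcra and Arpp21 have open points on both spleen arrays, and Rorb has open points on all 4 arrays.

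The promoters of the 4 rearrangement and pre-TCR genes are shown because all 4 genes were far brighter in thymus. They are the 250 bases upstream of the annotated start, 5′ to 3′ on the gene's strand, from RefSeq on the build GRCm38.p6. Capitals mark 3 motifs, searched on both strands: the E-box CANNTG, bound by E proteins such as E2A and HEB, the Runx site TGTGGT, and the core motif AGGTCA of ROR nuclear receptors. The Rag1 window is chr2:101649533-101649782 (minus strand), that of Rag2 chr2:101624462-101624711 (plus strand), that of Dntt chr19:41029025-41029274 (plus strand) and that of Ptcra chr17:46763713-46763962 (minus strand).
Rag1: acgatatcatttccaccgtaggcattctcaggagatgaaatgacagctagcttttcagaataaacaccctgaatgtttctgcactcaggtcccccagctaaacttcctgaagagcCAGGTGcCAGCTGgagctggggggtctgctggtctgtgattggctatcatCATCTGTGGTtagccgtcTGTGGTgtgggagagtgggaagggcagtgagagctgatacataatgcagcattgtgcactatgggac
Rag2: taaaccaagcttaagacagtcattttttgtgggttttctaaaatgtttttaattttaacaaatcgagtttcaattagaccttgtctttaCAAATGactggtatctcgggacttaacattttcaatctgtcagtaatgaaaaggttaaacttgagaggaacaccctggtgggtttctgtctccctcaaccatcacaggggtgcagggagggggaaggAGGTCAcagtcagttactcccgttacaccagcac
Dntt: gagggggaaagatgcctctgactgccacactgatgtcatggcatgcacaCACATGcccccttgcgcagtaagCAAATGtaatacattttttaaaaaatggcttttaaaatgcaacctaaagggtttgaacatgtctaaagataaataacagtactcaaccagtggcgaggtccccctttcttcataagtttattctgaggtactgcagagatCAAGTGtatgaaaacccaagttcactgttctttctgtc
Ptcra: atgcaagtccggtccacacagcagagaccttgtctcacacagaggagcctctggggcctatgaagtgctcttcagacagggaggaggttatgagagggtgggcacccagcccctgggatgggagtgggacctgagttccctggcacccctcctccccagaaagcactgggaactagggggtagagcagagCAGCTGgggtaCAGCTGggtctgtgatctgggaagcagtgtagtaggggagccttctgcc

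Each of these 4 windows held an E-box, a motif that 66.2% of 32851 upstream windows of the same length also held. Rag1 and Dntt had 3 E-boxes each, which 12.2% of windows reached, Ptcra had 2, which 31.8% of windows reached, and Rag2 had 1. The Rag1 window also held 2 Runx sites, where 14.0% of all windows held at least 1 and 1.27% at least 2. The more upstream of them overlaps the last bases of an E-box. The Rag2 window had the ROR motif, which 14.0% of all windows held. Promoter windows were at hand for 7 of the 10 genes, 17 windows in all. Of the other windows, both of Themis and all 9 of Arpp21 had between 1 and 5 E-boxes, while those of Rorb had 0 and 2. Runx sites stood in 3 of the Arpp21 windows, of which a pair overlap. A match to these letters is a description of the sequence and shows no binding.

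Among the genes of cutting and joining, Rag1 read 2555 on deltaDC thymus and 2653 on WT thymus, against 3.22 on deltaDC spleen and 15.2 on WT spleen (probe at chr2:101478813-101478872, minus strand, mm9). Only the thymus arrays were well above background, and both spleen readings were below the lowest signal called well above background there. In deltaDC Tregs Rag1 was therefore at least 158-fold higher in thymus. Bounds of this kind set thymus against the dimmest probe still called well above background in spleen, 15.2 on deltaDC spleen and 17.1 on WT spleen. In WT Tregs the same step gave 130-fold, which is no bound, because 1 of the 2 WT spleen spots was above background, and the ratio to that spot was 34.3-fold. Its other probe (chr2:101481051-101481110) read 182 and 185 on deltaDC and WT thymus, against 3.53 and 3.81 on deltaDC and WT spleen, which gave bounds of 11.3-fold and 9.06-fold.

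One reading stands out within Rag1. Its brighter probe is spotted 2 times on each array, and on WT spleen 1 spot read 64.7, well above background, while the other read 3.55. The same 2 spots read 3.20 and 3.24 on deltaDC spleen, 2515 and 2595 on deltaDC thymus, and 2625 and 2680 on WT thymus. No outlier flag was set on any of them. The second Rag1 probe was dim on WT spleen in both of its spots (3.72 and 3.90).

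Rag2 read 676 on deltaDC thymus and 722 on WT thymus, against 7.66 on deltaDC spleen and 3.52 on WT spleen. It was above background in thymus only, at least 41.8-fold higher in deltaDC and at least 35.3-fold higher in WT. The probe lies at chr2:101470723-101470782 (plus strand, mm9), and its sequence, shown because a second Rag2 probe gave another picture, has 1 reading frame without a stop codon.
Rag2 probe: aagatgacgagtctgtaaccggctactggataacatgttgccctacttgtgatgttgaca
The second probe lies 1663 bases further 3′ (chr2:101472445-101472504) and is spotted 10 times. Its spots ranged from 5.59 to 25.5 on deltaDC thymus with a median of 14.95, and from 8.67 to 22.9 on WT thymus with a median of 11.01, against 3.31 to 4.89 on deltaDC spleen and 3.67 to 4.45 on WT spleen. Every thymus spot of this probe was brighter than every spleen spot, but just 1 of 10 on deltaDC thymus and 2 of 10 on WT thymus were well above background, so the probe as a whole gave no value. The plot of every spot sets the 2 Rag2 probes side by side.

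**Figure D2:**
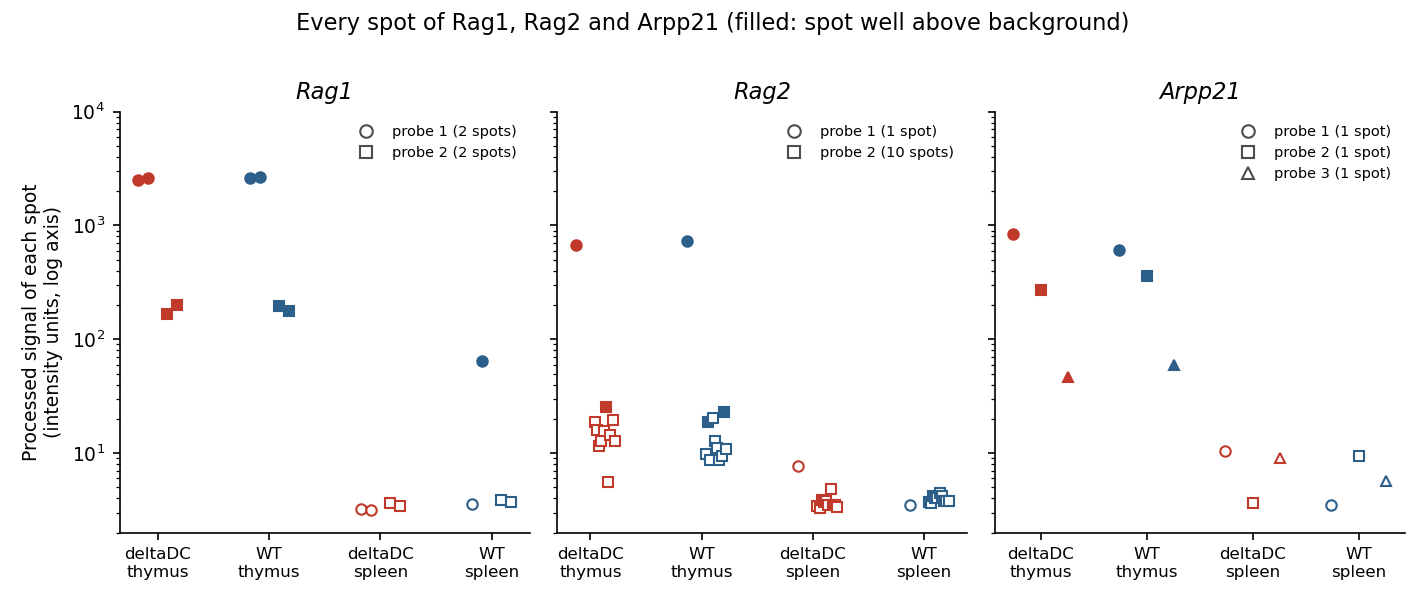
Processed signal (intensity units, log axis) of every spot of Rag1, Rag2 and Arpp21 on the 4 arrays. Circles, squares and triangles are the probes of a gene in the order of their brightness, and filled symbols are spots well above background. The single filled circle on WT spleen is the Rag1 spot at 64.7, and the 10 spots of the second Rag2 probe lie near the edge of detection in thymus.

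Dntt read 45356 on deltaDC thymus and 48489 on WT thymus, against 260 on deltaDC spleen and 301 on WT spleen (chr19:41133936-41133995, plus strand, mm9). It was well above background on all 4 arrays, so its organ difference was measured and not bounded. The thymus minus spleen difference was 7.35 log2 units in deltaDC, a 164-fold difference, and 7.08 in WT, a 135-fold difference, each with a spot error of 0.09. No spot was saturated on any array.

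Ptcra read 3435 on deltaDC thymus and 3743 on WT thymus, against 10.2 on deltaDC spleen and 6.83 on WT spleen (chr17:46892827-46892886, minus strand, mm9). Like Rag1 and Rag2 it was well above background in thymus only. Its bounds were 213-fold in deltaDC and 183-fold in WT. Ptcra has a single probe on this design, as do Dntt and Cd24a.

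Cd24a encodes heat stable antigen, a surface glycoprotein that is high on immature thymocytes and lost as they mature. It read 4745 on deltaDC thymus and 3871 on WT thymus, against 155 on deltaDC spleen and 84.7 on WT spleen (chr10:43303706-43303765, plus strand, mm9). All 4 readings were well above background and the organs did not overlap. Thymus minus spleen was 4.85 ± 0.13 log2 units in deltaDC and 5.26 ± 0.14 in WT (spot error), or 28.9-fold and 38.3-fold.

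Arpp21 encodes a phosphoprotein known from neurons and from immature thymocytes. Its brightest probe (chr9:112021688-112021747, minus strand, mm9) read 838 on deltaDC thymus and 603 on WT thymus, against 10.4 on deltaDC spleen and 3.51 on WT spleen. All 3 of its probes were well above background on both thymus arrays and on neither spleen array. The bounds of the brightest probe were 51.9-fold in deltaDC and 29.5-fold in WT, those of the second 16.8-fold and 17.6-fold, and those of the dimmest 2.92-fold and 2.93-fold.

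The other genes set a contrast. Cd1d1, which encodes the lipid-presenting molecule that selects natural killer T cells, read 6474 on deltaDC thymus and 6321 on WT thymus, against 4821 on deltaDC spleen and 4952 on WT spleen. Thymus minus spleen was 0.34 ± 0.08 log2 units in deltaDC and 0.10 ± 0.08 in WT (spot error), and 0.57 and 0.39 by its other probe. Tox, an HMG-box factor needed for CD4 T cell development, read 5556 on deltaDC thymus and 4966 on WT thymus, against 3776 on deltaDC spleen and 3351 on WT spleen. Its difference was 0.47 in deltaDC and 0.31 in WT, and by its other probe 0.33 in deltaDC and -0.07 in WT. Both genes stayed within 2-fold between organs by both of their probes.

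Themis encodes an adaptor of T cell receptor signalling needed for thymocyte selection. Its brighter probe read 1380 on deltaDC thymus and 1204 on WT thymus, against 1042 on deltaDC spleen and 614 on WT spleen. The WT spleen array was the low one. Thymus minus spleen was 0.32 ± 0.08 log2 units in deltaDC and 0.71 ± 0.10 in WT (spot error). The dimmer probe read 201 on deltaDC thymus and 182 on WT thymus, against 131 on deltaDC spleen and 64.5 on WT spleen, a difference of 0.53 in deltaDC and of 1.24, past 2-fold, in WT.

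Rorb, an orphan nuclear receptor known from retina and brain, was not well above background by either of its 2 probes on any array. Its brighter probe read 11.99 on deltaDC thymus and 3.30 on WT thymus, against 6.25 on deltaDC spleen and 4.75 on WT spleen. No fold was given for it, since each reading was below the lowest signal called well above background on its array. The other probe read between 3.13 and 8.67.

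**Figure D3:**
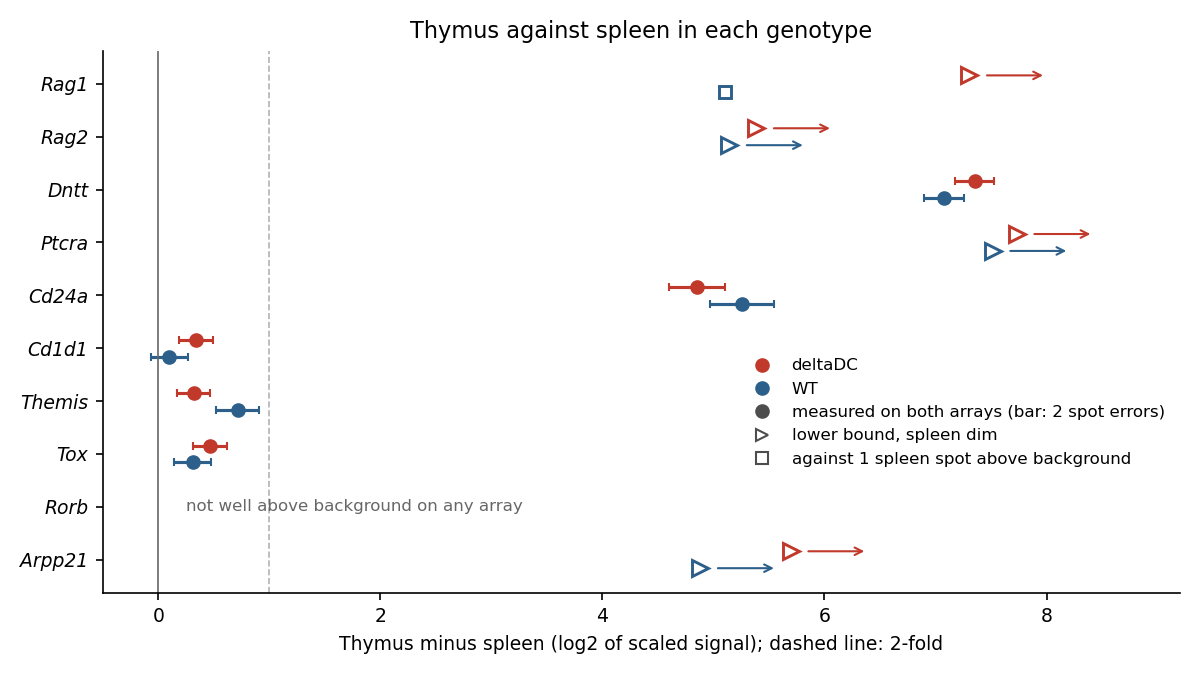
Thymus minus spleen difference (log2 of scaled signal) of the 10 genes in deltaDC (red, upper) and WT (blue, lower) Tregs. Filled points were measured on both arrays with bars of 2 spot errors, open triangles are lower bounds where the spleen arrays were dim, the open square is Rag1 in WT against its single spleen spot above background, and the dashed line is 2-fold. The 6 genes right of the dashed line are the same in both genotypes, and Cd1d1, Themis and Tox lie left of it.

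In deltaDC Tregs, 7.49% of 20518 genes with a value were at least 2-fold higher in thymus by measurement or bound, and in WT Tregs 7.56% of 19978 were. Lower by the same line were 6.52% in deltaDC and 5.6% in WT. Of the 10 genes, 6 passed that line in each genotype, 2 by measurement and 4 through a dim spleen signal, Rag1 in WT also against its brighter spleen spot, and 0 were lower. Those 4 passed through their thymus signal alone, so they could lie on no other side. The median over the 9 genes with a value, those bounds included, was 5.39 log2 units in deltaDC and 5.14 in WT. With Rag1 against that spot it was 5.10 in WT. Over all genes with a value the median was -0.02 and -0.11. Among the 5 measured on both arrays the median was 0.47 in deltaDC and 0.71 in WT, beside -0.02 and -0.13 over all measured genes. With normexp background correction, which adds an offset to every signal, the differences of the dim genes were smaller, for Rag1 5.13 log2 units in deltaDC and 4.89 in WT, for Ptcra 5.36 and 5.28, for Arpp21 3.64 and 3.11, and for Rag2 3.31 and 3.32. All stayed past 2-fold, and Cd24a in WT was 4.53.

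Organ and genotype were then fitted together over the 4 arrays, which leaves 1 residual degree of freedom and takes each organ difference as repeated in both genotypes. By limma's moderated test with Benjamini-Hochberg adjustment over 19396 genes, 5 of the 9 genes tested were called higher in thymus, where 0.614% of all genes were, and 0 were called lower, where 0.0309% were. Ptcra had a fitted difference of 8.57 log2 units (SE 0.22), Dntt of 7.21 (SE 0.17) and Cd24a of 5.05 (SE 0.19), each with a limma adjusted p of 0.0445. Arpp21 followed at 6.71 (SE 0.31, limma adjusted p 0.045) and Rag2 at 6.90 (SE 0.34, limma adjusted p 0.0456). These adjusted p-values lie close to the threshold of 0.05. After quantile normalization, and in the authors' deposited log2 matrix, 0 of the 9 genes tested were called, beside 0 of all 19396 genes. With only genes above background on all 4 arrays, 0 of the 5 genes tested were called, beside 0 of all 17327. For Rag2, Ptcra and Arpp21 the fit reads the dim spleen signals as they are, so those sizes are no bounds, and these 3 genes entered the test through their thymus arrays.

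Rag1 was not called, with a fitted difference of 8.37 log2 units (SE 0.69, limma adjusted p 0.0692). It too entered the test through its thymus arrays, and its fitted size reads dim spleen signals and is no bound. Without its brighter WT spleen spot, a setting chosen after this miss was seen, 6 of the 9 genes were called, Rag1 among them. That setting drops the spot above background (64.7) and keeps the dim one (3.55), so the Rag1 call rests on a dim reading. Across its 7 alternatives the limma adjusted p of Rag1 ran between 0.00368 and 0.153. Themis at 0.52 (SE 0.19, limma adjusted p 0.302), Tox at 0.39 (SE 0.16, limma adjusted p 0.329) and Cd1d1 at 0.22 (SE 0.17, limma adjusted p 0.528) did not pass the test.

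Some markers of other cells also differed between organs. Of 13 cortical and immature thymocyte markers, 6 are genes of this report, and the other 7 were all well above background on each thymus array, with 6 of them so on each spleen array. The summed signal of these 7 was 46165 on deltaDC thymus and 40391 on WT thymus, against 34989 on deltaDC spleen and 24732 on WT spleen. In each genotype 2 of the 7 were at least 2-fold higher in thymus, and 1 was lower in deltaDC and 0 in WT. Cd8a was higher by that line in both genotypes, while Cd8b1 was so in deltaDC only and another marker in WT only. Cd8a, the CD8 chain of cells that the bead step was meant to remove, read 218 on deltaDC thymus and 108 on WT thymus, and was dim at 8.76 and 9.16 on deltaDC and WT spleen. Of 13 markers of B cells and B precursors, which also use Rag1, Rag2 and Dntt, 11 were well above background on deltaDC thymus and 10 on WT thymus, against 10 on deltaDC spleen and 8 on WT spleen. Their summed signal was 13542 on deltaDC thymus and 8116 on WT thymus, against 12642 on deltaDC spleen and 6720 on WT spleen. Il7r, also on a list of mature recirculating T cell markers, made up 10215 of the deltaDC spleen sum and 4469 of the WT spleen sum. It read 3963 on deltaDC thymus and 3427 on WT thymus. With bounds, 7 of 11 B lineage markers with a value were at least 2-fold higher in thymus in deltaDC and 1 lower. In WT 4 of 10 were higher and 0 lower. Of all genes with a value, 7.49% in deltaDC and 7.56% in WT were higher by that line. Il7r was lower in thymus, by -1.46 log2 units in deltaDC and -0.64 in WT, as was Cd22, by -0.73 and -0.63. Ms4a1 (CD20) read 864 on deltaDC thymus and 282 on WT thymus, against 22.0 on deltaDC spleen and 4.07 on WT spleen, while Igll1, the surrogate light chain of B precursors, and Pax5 were not well above background on any array. The part of thymocytes and B lineage cells in the organ differences was not tested.

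The genotype comparison asked whether these genes differ between Tregs of deltaDC and WT mice. In thymus, 4.03% of 20083 genes were at least 2-fold different either way, and 0 of the 9 genes with a value were. Rag1 differed by -0.09 ± 0.06 log2 units (spot error), Rag2 by -0.14 ± 0.12, Dntt by -0.14 ± 0.07 and Ptcra by -0.16 ± 0.08, deltaDC minus WT. All 4 were slightly dimmer on the deltaDC thymus array, each by less than 2 spot errors. Themis at 0.16 and Tox at 0.12 also lay within 2 spot errors, and Cd1d1 at -0.0042 showed next to no difference. Cd24a was brighter by 0.26 ± 0.08, which is beyond its spot error. The median over the 9 genes was -0.0042, beside 0.05 over all genes with a value.

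Arpp21 gave no single answer in thymus. Its brightest probe was 0.44 ± 0.12 log2 units higher on deltaDC thymus, while the other 2 were lower there, by -0.45 ± 0.12 and -0.38 ± 0.37 (spot error). The 3 probes read 838, 271 and 47.1 on deltaDC thymus, against 603, 360 and 59.8 on WT thymus. They were designed to different transcript accessions of the gene and lie far apart along it, and no direction is given for the gene as a whole.

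In spleen, 10.7% of 19980 genes differed at least 2-fold either way between genotypes, and 0 of the 5 genes with a value did. Cd24a was higher on deltaDC spleen by 0.66 ± 0.17 log2 units, 1.58-fold, and Themis by 0.56 ± 0.09, 1.47-fold, with 0.82 ± 0.17 by its other probe. Both lay beyond 2 spot errors. Dntt was lower on deltaDC spleen by -0.41 ± 0.10 and Cd1d1 by -0.24 ± 0.08, while Tox at -0.03 ± 0.08 lay within its error. Rag1, Rag2, Ptcra, Rorb and Arpp21 were dim on both spleen arrays and have no genotype difference there.

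**Figure D4:**
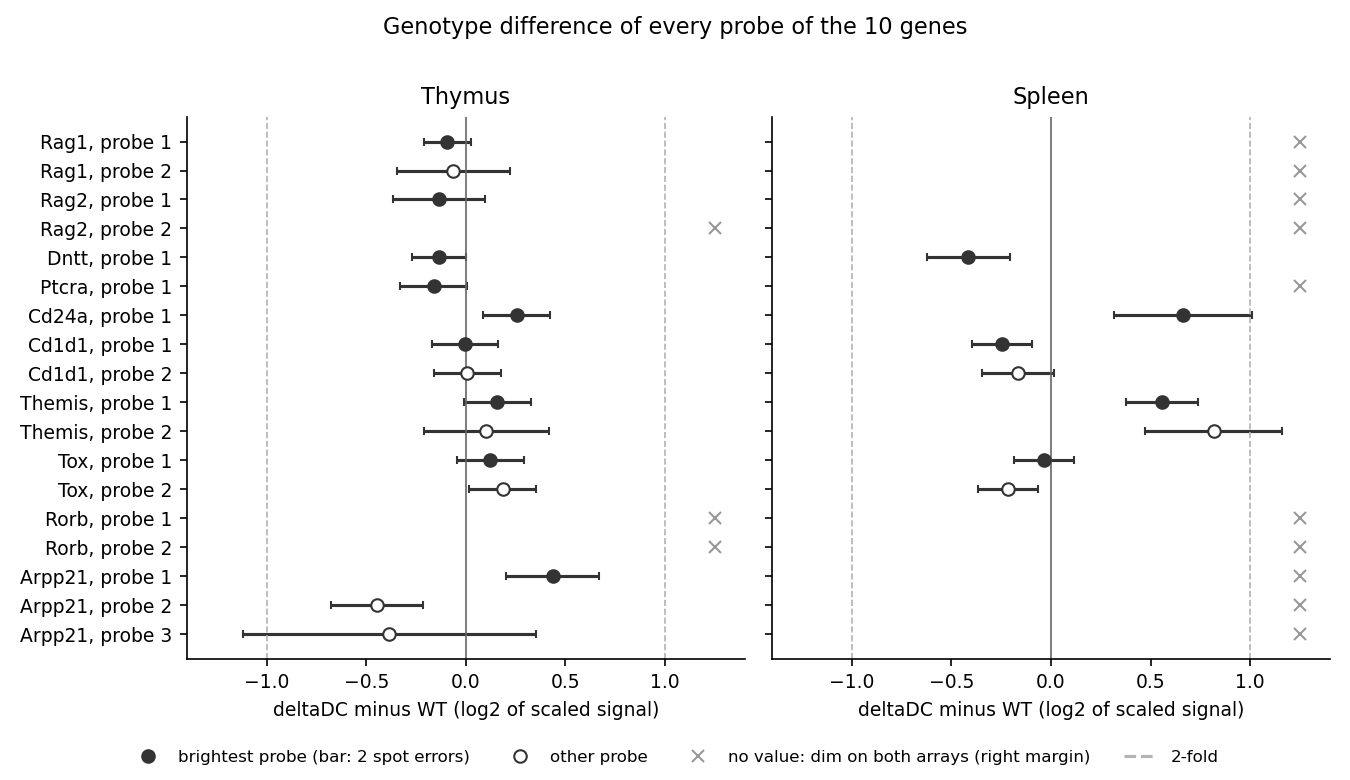
deltaDC minus WT difference (log2 of scaled signal) of all 18 probes of the 10 genes, in thymus (left) and spleen (right). Filled points are the brightest probe of a gene, open points its other probes, bars are 2 spot errors, dashed lines mark 2-fold, and crosses in the right margin mark probes that were dim on both arrays. Every point lies inside the 2-fold lines, and the Arpp21 probes lie on both sides of 0 in thymus.

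The fit over 4 arrays called 0 of the 9 genes for genotype, and 0 of all 19396 genes (0.0% in either direction) by limma's adjusted p, against 1045 genes at an unadjusted p under 0.05. None of the 9 genes was among these 1045. The largest fitted genotype differences were -1.27 (SE 0.69) for Rag1, 0.90 (SE 0.31) for Arpp21 and 0.46 (SE 0.19) for Cd24a. Each had a limma adjusted p of 0.793. Those of Rag1 and Arpp21 rest in part on dim spleen signals. Fitted by its other probes, Arpp21 gave -1.01 (SE 0.35) and 0.04 (SE 0.29). Beside these values, 6 of 11 B lineage markers with a value were at least 2-fold higher on deltaDC than on WT thymus and 0 lower. Of all genes with a value, 2.29% were higher by that line. Vpreb3 differed by 3.25 log2 units and Cd79a by 1.64, while Vpreb2 at 0.48 and Cd79b at 0.42 stayed within 2-fold. So did Cd22 at 0.39, Vpreb1 at 0.24 and Il7r at 0.17. Erythroid markers were at least 2-fold higher on both deltaDC arrays, 4 of 5 with a value in thymus and 5 of 6 in spleen. In spleen 6.26% of all genes with a value were that much higher. Their summed signal was 17983 on deltaDC thymus and 4293 on WT thymus, and 5898 on deltaDC spleen and 1848 on WT spleen. The part of these cells in the genotype values was not tested.

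Ordered by scaled level, the genes measured on all 4 arrays fell into 2 kinds. For Dntt the order from high to low was WT thymus, deltaDC thymus, WT spleen and deltaDC spleen, and for Cd24a deltaDC thymus, WT thymus, deltaDC spleen and WT spleen. In both the step between organs was the widest, at 6.94 log2 units for Dntt and 4.60 for Cd24a. The 2 thymus arrays of Dntt did not differ beyond 2 spot errors, whereas every neighbouring pair of Cd24a did. For Themis only the lowest step, between deltaDC and WT spleen, exceeded 2 spot errors, for Cd1d1 only the step between deltaDC spleen and WT spleen did, and for Tox only the step between WT thymus and WT spleen.

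Cutting receptor genes needs partners that repair the breaks. Of 13 joining factors, among them the Ku proteins Xrcc5 and Xrcc6, the kinase Prkdc, the nuclease Dclre1c (Artemis), the ligase Lig4 and Xrcc4, all 13 were measured on every array. Xrcc6 alone was at least 2-fold higher in thymus, by 1.39 log2 units in deltaDC and 1.31 in WT, and 0 were lower. Of all genes measured on both arrays, 4.96% in deltaDC and 5.33% in WT were that much higher, and 5.44% and 4.49% lower. Lig4 differed by 0.82 in deltaDC and 0.46 in WT. The list's median was 0.24 in deltaDC and 0.20 in WT, beside -0.02 and -0.13 over all measured genes. In the fit 0 of 13 were called, with 2 at an unadjusted p under 0.05, and Xrcc6 had a limma adjusted p of 0.104. Between genotypes 0 of 13 differed 2-fold in either organ, where 1.69% of all measured genes did in thymus and 8.18% in spleen.

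The pre-TCR signals through the same machinery as the mature receptor. All 13 genes of that list were measured on every array, among them the CD3 chains, the kinases Lck, Fyn and Zap70 and the adaptors Lat and Lcp2. Of these 13, 0 differed 2-fold in any of the 4 comparisons. Between organs 10.4% of all measured genes did in deltaDC and 9.82% in WT, and between genotypes 1.69% in thymus and 8.18% in spleen. The list's median thymus minus spleen difference was -0.23 in deltaDC and -0.24 in WT. Lcp2 (SLP-76) was the farthest from 0, at -0.88 in deltaDC and -0.72 in WT. In the fit 0 of 13 were called for organ, with 1 at an unadjusted p under 0.05.

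Of 24 transcription factors of thymocytes and relatives of the genes above, 23 had a value in deltaDC and 22 in WT. In deltaDC 2 were at least 2-fold higher in thymus and 3 lower, where 7.49% and 6.52% of all genes with a value were. In WT 3 were higher and 1 lower, where 7.56% and 5.6% of all genes were. With so few genes these counts are near those shares. Notch3, a receptor whose signal is known to drive Ptcra, read 1765 on deltaDC thymus and 2429 on WT thymus, against 4.54 on deltaDC spleen and 3.51 on WT spleen. Its bound was 6.77 log2 units in deltaDC and 6.89 in WT, and it was the single gene of this list called for organ (limma adjusted p 0.0445). It entered that test through its thymus arrays alone, and no gene of the array was called under quantile normalization, in the authors' deposited log2 matrix or with the filter on all 4 arrays, which leaves Notch3 out. Myb was 2.60 log2 units higher in thymus in deltaDC and 2.39 in WT, with a limma adjusted p of 0.0587. Dtx1, another gene of the Notch pathway, was lower in thymus, at -2.29 in deltaDC and -3.13 in WT (limma adjusted p 0.0956). Runx3 at -1.19 was past 2-fold lower in thymus in deltaDC alone, and Themis2 was past 2-fold higher, by 2.04, in WT alone; whether these differ between genotypes was not tested. Tcf3, which encodes the E2A proteins, differed by 0.62 in deltaDC and 0.34 in WT, and Tcf12 (HEB) by 0.40 and 0.35.

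**Figure D5:**
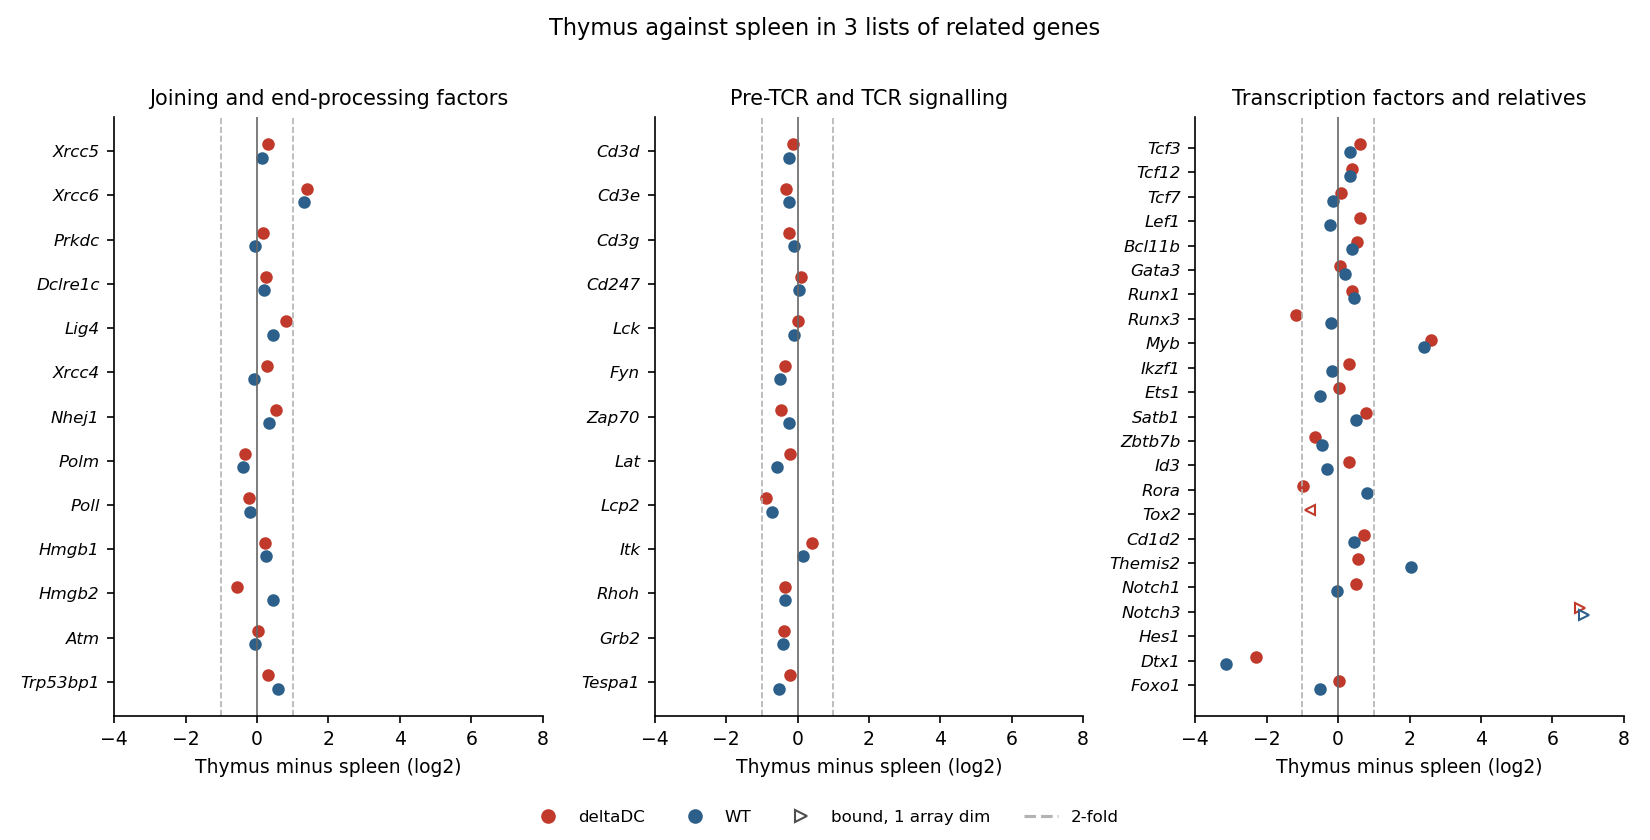
Thymus minus spleen difference (log2 of scaled signal) of 13 joining factors, 13 signalling genes and the transcription factors and relatives reported here, in deltaDC (red, upper) and WT (blue, lower) Tregs. Filled points were measured on both arrays, open triangles are bounds where 1 array was dim, and dashed lines mark 2-fold; Hes1 was dim on all arrays and Tox2 has a bound in deltaDC only. Xrcc6 stands alone outside the lines in the first list, the second list lies wholly inside them, and Notch3 is farthest right in the last.

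Among relatives, Cd1d2, the close copy of Cd1d1, differed between organs by 0.73 log2 units in deltaDC and 0.45 in WT. Set base by base, the Cd1d1 and Cd1d2 probes matched at 22 of 60 positions at most, without gaps. Rorb probes matched those of Rora at 22 of 60 positions at most. Both counts set probe against probe and not against the relative's transcript. They therefore cannot tell whether a probe also binds RNA of the relative. Rorb was dim where Rora read 2396 on deltaDC thymus and 2057 on WT thymus, against 4493 on deltaDC spleen and 987 on WT spleen.

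Rag1 and Rag2 lie next to each other on chromosome 2, with Iftap beyond Rag2 and Traf6 and Prr5l beyond Rag1. Iftap read 1349 on deltaDC thymus and 1100 on WT thymus, against 269 on deltaDC spleen and 364 on WT spleen, a difference of 2.24 log2 units in deltaDC and 1.34 in WT. Traf6, which encodes a signalling ubiquitin ligase, differed by 0.38 in deltaDC and -0.12 in WT. Prr5l differed by 1.38 and 1.93. Iftap and Prr5l were thus more than 2-fold higher in thymus in both genotypes, Traf6 was within 2-fold, and all 3 were well above background on both spleen arrays, unlike Rag1 and Rag2.

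The genes whose 4 scaled signals ran most like each member's were found by Euclidean distance of log2 values centred on each gene's mean, among 18421 genes above background on both thymus arrays. Nearest to Ptcra were Notch3, H19 and Gm525, at distances of 0.39, 0.55 and 0.57. Nearest to Rag1 were Gm525, Endou and H19, at 1.51, 1.75 and 1.80, and nearest to Dntt were Uaca, Endou and Adamtsl2, at 0.11, 0.11 and 0.19. For Rag2 they were Epb4.1l4b, Mpzl2 and Arpp21, and for Arpp21 they were Angpt1, Tmem121 and Rag2, with 0.55 between Rag2 and Arpp21. For Cd24a, the named gene among the nearest 3 was Ptpla, at 0.43. The distances rest on 4 arrays, and for genes that are dim in spleen, which include Notch3, H19, Gm525, Endou, Uaca and Adamtsl2, on spleen signals that have no order.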

How the data were processed

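Tregs of 4 groups were hybridised to 1-colour arrays, 1 array for each group. Per the labels' protocols, a low-input kit labelled 10 ng of total RNA (RNA integrity numbers of 8.4 to 9.9) with Cy3. Per the file headers, the deposited intensity values came from the scanner software Agilent Feature Extraction 10.7.3.1; they are background-subtracted array by array, with no scaling across arrays. The deposited files also hold other columns, flags of 0 or 1 for each spot. A matrix deposited by the authors names in its header background subtraction, quantile normalization and log2 values. Its columns had medians of 4.10 to 4.15. Each column correlated best with the array of its own label (Pearson r of at least 0.997 across gene names, after averaging by name). Direction and lack of centring of the matrix are thus known, and its offset is not.

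Here control spots and spots with an outlier flag (110 to 168 an array) were left out, log2 of the processed signal was reduced by each array's 75th percentile (417 on deltaDC thymus, 406 on WT thymus, 392 on deltaDC spleen and 340.05 on WT spleen), and repeated spots were averaged. Between 48.7% and 50.7% of spots were well above background, and 0 were saturated. Single readings and summed signals are given without the 75th percentile scaling. A probe counted as above background when most of its spots were. The number of arrays limits the precision, and depth has no meaning here. A gene name is the array's own, and probe coordinates are those of the files on mm9. Near-identical gene copies were not searched, as no genome was used. A gene above background on 1 of 2 arrays got a bound, set against its dim signal or that array's dimmest probe above background, whichever was brighter. The spot error comes from probes spotted 10 times, in bins of brightness.

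Organ and genotype were fitted with limma 3.58.1 in R 4.3.3 (lmFit and eBayes, two-sided) over the genes that 2 or more arrays measured above background, and p-values were adjusted by Benjamini-Hochberg over all these genes. On simulated data the fit returned the differences put in; it called most organ changes when many genes changed and none when few did, and it called no genotype changes, so a missing call says little. Tables and figures were made with Python 3.11.15, numpy 2.4.6, pandas 2.3.3 and matplotlib 3.10.9.

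All 10 genes were named with every probe. Of the related genes, those at least 2-fold different or with a bound were to be named, up to 8 a comparison, and for likeness the 3 nearest genes, and some list genes are counted but not reported here by name; 5 related genes within 2-fold were named beside them for their role. The members, the lists of related genes and the marker lists were chosen with earlier results of these data known. The 4 arrays carry 1 slide number, so slide is no batch between groups. Alternatives were normexp background correction (offset 50), quantile normalization, the authors' matrix, the median over a gene's probes, every probe on its own, no filter, genes above background on all 4 arrays, a 1.5-fold line and the tested factor alone; the Rag1 fit without 1 spot was added after seeing the data. In the organ and genotype fit, the 1 residual degree of freedom is how far a gene's organ difference departs between deltaDC and WT. SE and adjusted p-values of that fit measure this departure, moderated over all genes, and no spread between replicate arrays.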

Additional observations from a re-analysis of the deposited data

Results flagged for a closer look

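Tox had opposite signs in the 2 organs when deltaDC was set against WT. The difference was 0.12 log2 units in thymus and -0.0335 in spleen (spot errors 0.08 and 0.08), from 1 array in each group. Its other probe gave 0.19 in thymus and -0.22 in spleen. The difference between the organs was not tested.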

How the results depend on the processing

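No paired analysis was possible because the labels carry no replicate numbers that tie arrays together; the organ fit carries genotype as a term, and without it 6 of the 10 genes were called in place of 5. With 1 array for each group, none was left out in turn. Of the 10 genes, 6 were at least 2-fold higher in thymus in each genotype; with only genes above background on all 4 arrays, which leaves 5 of them, 2 were. The 6 other settings of the 2-fold line or the signals gave 5 or 6, and a 1.5-fold line gave 6 in deltaDC and 7 in WT. Between genotypes, taking dim signals as they are gave 1 gene in thymus (Rorb) and 2 in spleen (Rag1 and Arpp21), and a 1.5-fold line gave 1 in spleen (Cd24a), where the main count was 0. The fit called 5 genes for organ; quantile normalization, the authors' matrix and the filter on all 4 arrays each called 0, and the cause was not tested. The other settings called 4 to 6. For genotype every setting run called 0. Over all genes, 119 were called higher in thymus, against 408 with normexp, 335 with organ alone, 195 with the median over probes, 163 probes with every probe on its own and 83 with no filter; 6 genes were called lower, against 135, 58, 28, 7 and 2. Under quantile normalization, in the authors' matrix and with the filter on all 4 arrays, 0 of all genes were called by limma, against 3749, 3679 and 3428 at an unadjusted p under 0.05. Of 259 single-gene values under these alternatives, 191 stayed on the same side of the call threshold or within the spot error. Another 52 moved beyond that error, 12 lost and 4 gained a call, and 0 called values changed direction. Uncalled fitted values counted as the same even where their sign changed. The genotype value of Rag2, for example, was 0.39 in the main fit and -0.11 with normexp. Some alternatives cannot move a value, such as the median over probes for a gene with a single probe. Dim spleen signals limit Rag2, Ptcra and Arpp21 to bounds, and Rag1 to a bound in deltaDC and a single spot in WT, and 1 array for each group leaves differences between mice and labellings unmeasured.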

Other observations

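Of the 24 transcription factors and relatives, deltaDC spleen exceeded WT spleen 2-fold or more in 4 of 22 with a value and was lower by that much in 0, where 6.26% of all genes with a value were higher by that line. The list's median difference was -0.10 log2 units. Among them, Rora, a relative of Rorb, read 4493 on deltaDC spleen and 987 on WT spleen, a difference of 1.98 log2 units. Themis2, the relative of Themis known from B cells and macrophages, differed by 1.72 and Runx3 by 1.33. In thymus 0 of the 22 with a value differed 2-fold between genotypes, where 4.03% of all genes with a value did. Beside this, 5 of 6 markers of innate-like T cells also exceeded WT spleen at least 2-fold, with a summed signal of 5836 there and 319 on WT spleen, and their part in these values was not tested.

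The organ difference of the genes measured on all 4 arrays was compared between genotypes as a value with no test. In deltaDC minus in WT, it was 0.28 ± 0.13 log2 units for Dntt, -0.41 ± 0.19 for Cd24a, 0.24 ± 0.11 for Cd1d1, -0.40 ± 0.12 for Themis and 0.16 ± 0.11 for Tox (spot error). By the brightest probes, those of Dntt, Cd24a, Cd1d1 and Themis exceeded 2 spot errors, and that of Tox did not. By its other probe, thymus minus spleen of Tox was 0.33 in deltaDC and -0.07 in WT, a wider gap. The other Cd1d1 probe gave 0.57 in deltaDC and 0.39 in WT, a narrower gap. The split between Tox and Cd1d1 thus depends on the probe.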
